A study of Mus musculus with 4 samples.

Results

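The replication-dependent histone genes of the mouse were followed in RNA sequencing of sorted alveolar type 2 (AT2) cells, the surfactant-making epithelial cells of the lung. Members were all genes whose symbol has the form of a replication-dependent histone, that is Hist, a cluster number from 1 to 4, h, a class number and, in most, a letter code. This rule took 68 of the 22565 genes of the deposited table and used no measured value. It was, however, chosen with earlier results of these data known. Of the 68, 6 coded for the linker histone H1, 19 for H2A, 18 for H2B, 12 for H3 and 13 for H4. By position, 55 belonged to the Hist1 cluster on chromosome 13, 10 to Hist2 on chromosome 3, 2 to Hist3 on chromosome 11 and 1, Hist4h4, to chromosome 6.

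There were 4 libraries from mice 6 months old, 2 labelled wild type (WT) and 2 labelled knockout (KO) of Fbxo45, whose F-box protein picks the targets of a ubiquitin ligase. The growth protocol calls the animals conditional knockouts, but the sources used here give neither the Cre driver nor the deleted part of the gene. The genotype field names Fbxo45 for KO replicate 1 and Fbxo46 for KO replicate 2. AT2 cells were sorted by flow cytometry, and stranded libraries were made from 1 µg of total RNA after ribosomal RNA depletion. Nothing says that replicates came from separate animals, so the p-values below reflect library-to-library spread alone, which could be technical.

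The nucleosome core holds pairs of H2A, H2B, H3 and H4, and H1 binds the DNA where it enters and leaves. Replication-dependent histone genes lie in clusters, mostly lack introns and are transcribed mainly in S phase, when new chromatin is assembled. Their messages are the known exception to polyadenylation in animal cells: they end shortly after a conserved stem-loop, which the stem-loop binding protein Slbp holds during 3′ processing and translation. Some members also give longer, polyadenylated messages in cells that have stopped dividing. Depletion of ribosomal RNA, unlike selection on a poly(A) tail, keeps both kinds of message.

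Because the stem-loop is what sets these messages apart, it was read from the GENCODE M21 transcripts of each member (build GRCm38). The pattern searched on the transcript strand was GGNNC, then TTTT, then NAGNNCC, where N is any base, 16 letters in all. It was found in 44 of the 68 members: 4 of 6 H1, 11 of 19 H2A, 10 of 18 H2B, 8 of 12 H3 and 11 of 13 H4. A site beyond the annotated end of a transcript would be missed. Some members without the pattern have short annotated transcripts, such as Hist1h4k (312 bases) and Hist1h2bl (381 bases). These counts therefore do not show that the other genes lack a stem-loop. Of 21901 protein-coding genes, 72 held it (0.329%). In the sites of 12 members followed below, shown here with 5 bases on each side and the 16 letters in capitals, the stem of the H4 genes differs from that of the other classes.
Hist1h1c: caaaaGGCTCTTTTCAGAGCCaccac
Hist1h1e: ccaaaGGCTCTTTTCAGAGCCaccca
Hist2h2ac: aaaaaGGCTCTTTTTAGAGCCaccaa
Hist1h2bg: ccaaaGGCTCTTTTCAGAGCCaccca
Hist1h3f: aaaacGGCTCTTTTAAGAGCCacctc
Hist1h3e: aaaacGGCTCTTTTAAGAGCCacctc
Hist1h4c: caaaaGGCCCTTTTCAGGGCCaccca
Hist1h4d: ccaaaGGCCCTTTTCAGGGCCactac
Hist1h4h: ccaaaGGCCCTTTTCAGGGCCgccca
Hist1h4b: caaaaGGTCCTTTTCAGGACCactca
Hist2h4: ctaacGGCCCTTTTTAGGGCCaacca
Hist4h4: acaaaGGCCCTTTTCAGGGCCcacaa
Of the 11 H4 members with the pattern, 7 carried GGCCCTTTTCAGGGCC, 2 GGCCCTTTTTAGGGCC and 2 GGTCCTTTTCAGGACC. All 33 members of the other classes with the pattern carried a stem that opens GGCTC, most often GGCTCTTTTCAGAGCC (26 members, among them 10 H2A and 8 H2B).

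The deposited table gives estimated fragment counts and FPKM (fragments scaled to transcript length and library size). The counts of a library are multiples of 1 constant, and division by it gave whole fragments, within 0.05, for 90.5 to 92.4% of the values. Library totals were 4167131 and 8200253 fragments for WT replicates 1 and 2, and 9507471 and 7066441 for KO replicates 1 and 2. Levels are compared between libraries as CPM (counts per 1000000 fragments of the library) and between genes as FPKM. Fbxo45 was at 22.3 and 28.7 CPM in the WT libraries and at 22.5 and 35.2 CPM in those labelled KO, so its level did not set the groups apart and does not check the label. Fbxo46 read 13.9, 12.8, 13.7 and 14.7 CPM in the same order. KO below names the label of a library throughout, and the direction of every difference rests on that label. The AT2 label was met in every library, with Sftpc, the gene of surfactant protein C, at 47775 to 76011 CPM. All 10 listed AT2 markers were in the table, which by itself does not show their level. The library of KO replicate 1 stood apart: its 10 fast skeletal muscle markers summed to 1263 FPKM, against 0.544 to 10.46 FPKM in the other libraries, and its AT2 markers summed to 82294 FPKM, against 116910 to 130816. For macrophage markers (4 of 7 in the table) the sum was 13.6 FPKM in KO replicate 1 and 7.13 to 8.16 in the others, and for T and B cell markers (5 of 6) it was 3.16 against 0.709 to 1.66. Fibroblast markers summed to 16.8 to 42.4 FPKM, and endothelial, erythroid and neutrophil markers to at most 3.11 FPKM in any library. Results below are therefore given for each KO library by itself.

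Fragments of the replication-dependent histones made up a smaller part of both libraries labelled KO. Summed over the 68 genes, they came to 430.8 CPM (exact binomial 95% interval 411.1 to 451.1) in WT replicate 1 and 437.0 CPM (422.9 to 451.6) in WT replicate 2. In KO replicate 1 the sum was 179.7 CPM (171.3 to 188.5) and in KO replicate 2 it was 270.2 CPM (258.3 to 282.7). These intervals cover counting error only. Relative to the WT mean, KO replicate 1 stood at 41.4% and KO replicate 2 at 62.3%, and the log2 ratio of the group means was −0.95. The groups did not overlap, and the KO libraries differed from each other by more than the WT libraries did (SD 64.0 CPM against 4.38 CPM, n = 2 each). In a bulk sample, fewer cells in S phase and less histone RNA in each such cell cannot be told apart. Muscle markers summed to 1263 FPKM in KO replicate 1, 9.84 in KO replicate 2 and 10.46 in WT replicate 2. The part of the muscle RNA in the histone sums was not tested.

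The classes did not stand at the same fraction of WT. H4, the largest class, held 49.6% of histone fragments in WT replicate 1 and 47.5% in WT replicate 2. It summed to 213.6 and 207.6 CPM in WT and to 65.3 and 121.7 CPM in the KO libraries, which is 31.02% and 57.8% of the WT mean. H3 lay furthest below WT, at 36.5 and 33.5 CPM in WT against 4.21 and 17.95 CPM, or 12.03% and 51.3%. H3 took 8.47% and 7.66% of histone fragments in WT, 2.34% in KO replicate 1 and 6.64% in KO replicate 2. The linker histones H1 summed to 73.0 and 71.8 CPM in WT and to 38.4 and 44.7 CPM in the KO libraries (53.0% and 61.8%). For the dimer partners the distance was smaller. H2B stood at 70.9 and 81.3 CPM in WT and at 47.6 and 53.6 CPM in KO (62.5% and 70.4%), and H2A at 36.9 and 42.8 CPM in WT and at 24.3 and 32.2 CPM in KO (60.9% and 80.9%). All 5 classes had both KO libraries below both WT libraries, though for H2A the counting intervals of KO replicate 2 and WT replicate 1 overlap. In KO replicate 2 the classes lay closer together than in KO replicate 1. Summed per length, as FPKM, the classes of KO replicate 1 again ran from H3 at 12.2% and H4 at 20.1% of the WT mean to H1, H2A and H2B at 41.7 to 45.9%. On that scale those of KO replicate 2 lay between 56.2% (H3) and 66.1% (H1), so the distance between classes was seen on both scales in KO replicate 1 and mainly as CPM in KO replicate 2.

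**Figure D1:**
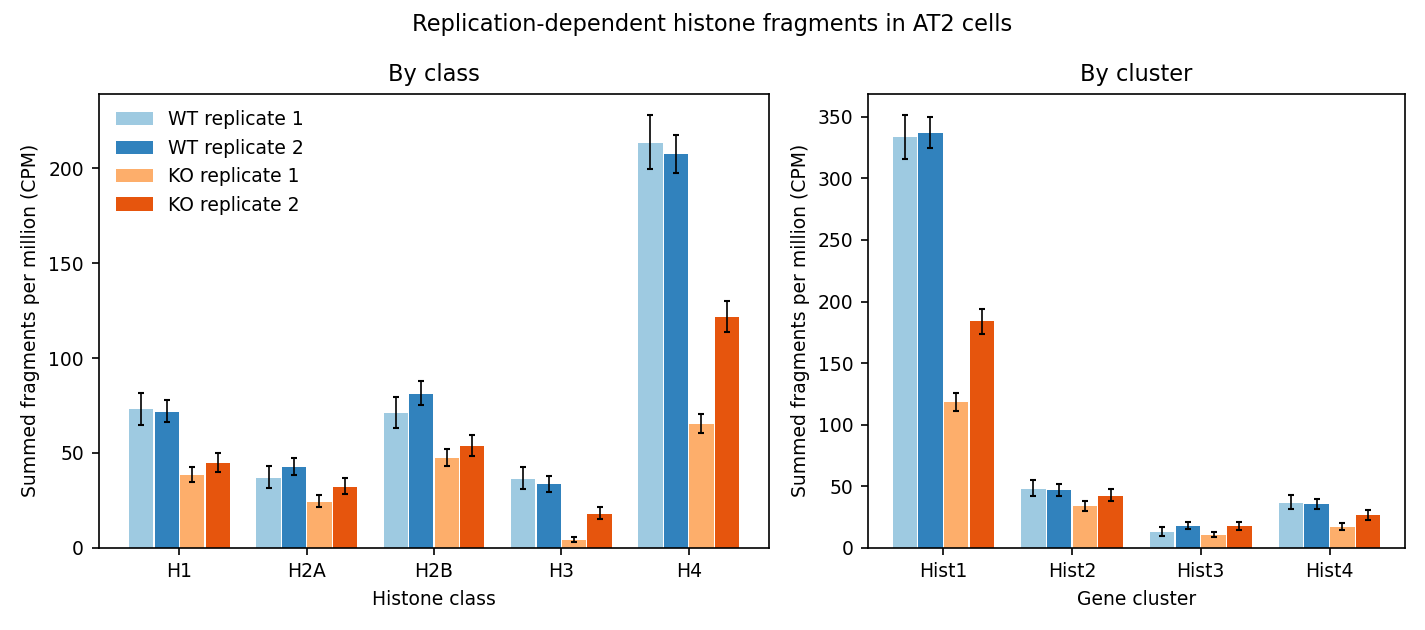
Summed CPM of the histone genes by class and by cluster in each of the 4 libraries, with exact binomial 95% intervals that cover counting error only. All 5 classes and the Hist1, Hist2 and Hist4 clusters have both KO libraries below both WT libraries, while Hist3 overlaps between the groups; for H2A and Hist2 the intervals of KO replicate 2 and WT overlap.

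The clusters differed too. Hist1 and Hist2 hold genes of several classes, Hist1 alone holds those of H1, and Hist4 is an H4 gene only. Hist1 held 77.3% and 77.1% of histone fragments in the WT libraries. Its sum was 333.2 and 337.0 CPM in WT and 118.2 and 183.8 CPM in the KO libraries, or 35.3% and 54.9% of the WT mean. Hist4h4, the lone member of Hist4, was at 36.7 and 35.4 CPM in WT and at 16.9 and 26.6 CPM in KO (47.0% and 73.8%). Hist2 came closer to WT, with 48.1 and 47.0 CPM in WT and 33.9 and 42.4 CPM in KO (71.2% and 89.2%), and the counting interval of KO replicate 2 overlaps those of both WT libraries. Per length, Hist2 was at 50.6% and 64.7% of the WT mean and Hist1 at 23.1% and 59.7%. Hist3 overlapped between the groups, at 12.7 and 17.7 CPM in WT and 10.7 and 17.4 CPM in KO.

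Class and cluster could be set beside each other where a class has genes in both Hist1 and Hist2. H2B genes of Hist1 summed to 54.4 and 62.7 CPM in WT and 30.8 and 35.1 CPM in KO. H2B genes of Hist2 read 16.6 and 18.5 CPM in WT and 16.7 and 18.5 CPM in KO, which is 95.3% and 106% of the WT mean. This depended on the scale, since CPM gives most weight to the longer Hist2h2be. Per length, Hist2h2be and the shorter Hist2h2bb together came to 18.7 and 17.2 FPKM with the WT label. They came to 11.6 FPKM in KO replicate 1 and 7.80 in KO replicate 2, or 64.5% and 43.4% of the WT mean. The H2B genes of Hist1 were at 42.1% and 68.2% on that scale, so in KO replicate 2 the order of the clusters was reversed. That reversal rests on Hist2h2bb, which had 14 and 38 fragments in WT, 30 in KO replicate 1 and only 2 in KO replicate 2. Hist2h2be was at 6.46 FPKM in KO replicate 2, against 4.47 and 4.70 FPKM in WT. H3 showed a split like that of H2B as CPM. Its Hist1 genes were at 31.7 and 28.8 CPM in WT and at 2.73 and 11.0 CPM in KO (9.04% and 36.5%). Its Hist2 genes were at 4.80 and 4.66 CPM in WT and at 1.47 and 6.91 CPM in KO (31.1% and 146%). These Hist2 values rest on 20 and 38 fragments in WT and 14 and 49 in KO. Of the sequence of these genes, 61.6 to 100% is shared with other genes. The H4 genes of Hist1 were at 168.2 and 167.9 CPM in WT and at 44.8 and 88.0 CPM in KO, and Hist2h4, the H4 gene of Hist2, overlapped between the groups at 8.64 and 4.27 CPM in WT and 3.58 and 7.08 CPM in KO. H2A went the other way in KO replicate 2: its Hist2 genes read 18.1 and 19.5 CPM in WT and 12.1 and 9.89 CPM in KO, while its Hist1 genes, much lower, read 6.00 and 5.73 CPM in WT and 1.47 and 4.95 CPM in KO. No sum over members has a test here, since an exact permutation test of 2 libraries against 2 cannot pass 0.05.

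**Figure D2:**
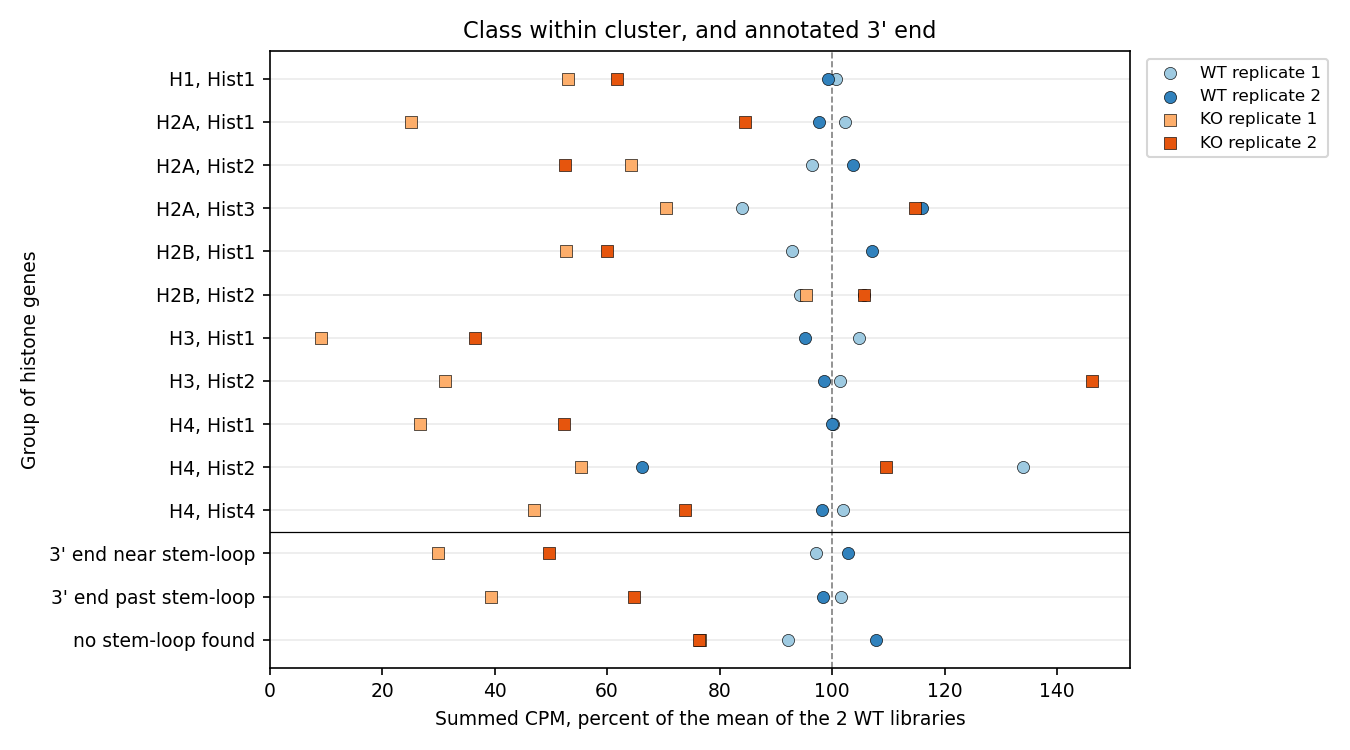
Summed CPM as a percentage of the mean of the 2 WT libraries, for each class within each cluster and for members grouped by their annotated 3′ end; circles are WT and squares KO libraries. H3, H2A and H4 of Hist1 lie furthest left in KO replicate 1, at 9.04%, 25.1% and 26.7%, while H2B of Hist2 lies at 95.3% and 106% on this scale.

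Within Hist1 the fragments came almost wholly from 1 stretch of the chromosome. Splitting the cluster wherever neighbouring genes are more than 1 Mb apart gave a stretch of 31 genes at chr13:23531050-23934851, a stretch of 23 genes at chr13:21715763-22043676, and Hist1h2al alone at chr13:51202727-51203065 (GENCODE M21). The 31 genes summed to 329.6 and 332.2 CPM in WT and 117.8 and 182.7 CPM in KO, and all 24 Hist1 members abundant enough to test lay among them. The 23 genes summed to 3.60 and 4.76 CPM in WT and 0.421 and 1.13 CPM in KO, and 9 of them had no fragment in any library. The 2 stretches also differ in how far their reads can be placed: the median share of 100-base stretches of a transcript found in another gene as well was 70.8% for the 23 genes and 28.4% for the 31. How far this sets the low counts was not tested. Reads that fit several genes are divided by the counting program in a way the sources used here do not give, so single members with a high shared part are uncertain.

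Member by member, 12 of the 68 genes had no fragment in any library, which at the depth of these libraries allows up to 0.316 to 0.72 CPM (3 fragments). They were 8 H2A, 2 H2B, 1 H1 and 1 H3 gene. A further 21 had fragments but too few to test (mean under 0.5 CPM over the 4 libraries), with 33, 70, 19 and 8 fragments in all in WT replicates 1 and 2 and KO replicates 1 and 2. Of these 21, 12 had none in either KO library. The remaining 35 were tested: 4 H1, 7 H2A, 7 H2B, 9 H3 and 8 H4. Of the 56 members with any fragment, 49 had a lower mean CPM in KO than in WT, and the share of all genes with any fragment was not counted. Among the 35, 6 had a KO mean under 0.5 CPM and so were kept by their WT level, and Hist1h2ae was kept by its KO level, so counts over the 35 describe these genes only.

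Both KO libraries were below both WT libraries for 22 of the 35 tested members, against 16.8% of all 12776 genes tested. By class these were 3 of 4 H1, 3 of 7 H2A, 5 of 7 H2B, 4 of 9 H3 and 7 of 8 H4. By cluster they were 18 of 24 in Hist1, 3 of 9 in Hist2, Hist4h4, and not Hist3h2a. For no member were both KO libraries above both WT libraries, against 16.4% of all genes tested. KO replicate 1 by itself was below both WT libraries for 31 of 35 members (37.9% of all genes), and KO replicate 2 for 22 (40.7% of all genes). KO replicate 2 was above both WT libraries for 5 members (38.5% of all genes) and KO replicate 1 for none. Of 16 members with a mean over 5 CPM, for which the filter matters little, 15 had a lower mean in KO. Both KO libraries were below both WT libraries for 13 of them. The shares of all genes over 5 CPM were not counted.

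No member passed the test across all genes. In edgeR's quasi-likelihood test with Benjamini-Hochberg adjustment, 0 of 12776 genes (0%) were called at 0.05, and the lowest adjusted p of the 35 members was 0.999. At an unadjusted p under 0.05 there were 395 genes (3.09%), of which 239 were lower in KO (1.87%), and 10 members, all of them lower. The log2 fold change was below 0 for 31 of 35 members, against 48.3% of all genes tested, and its median was −1.13 for the members and 0.02 for all genes. By class the median was −0.88 for H1, −0.60 for H2A, −0.86 for H2B, −1.79 for H3 and −1.44 for H4. Other tools differed in the count: limma on log2(FPKM + 1) called 0 of 11055 genes (0%), and 535 passed an unadjusted p of 0.05. DESeq2 called 8 of 12776 (0.0626%), of which Hist1h3f was the 1 member.

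The calls depended on which KO library was kept. With KO replicate 1 alone against WT, edgeR called 1069 genes at 0.05, 3.86% of all genes tested in the lower direction, and 11 members were among these: Hist1h1d, Hist1h1e, Hist1h2be, Hist1h2bg, Hist1h3e, Hist1h3f, Hist1h4c, Hist1h4d, Hist1h4f, Hist1h4h and Hist4h4. With KO replicate 2 alone, it called 485 genes, 2.56% of all in the lower direction, and 5 members: Hist1h1c, Hist1h3f, Hist1h4d, Hist1h4h and Hist2h2bb. Hist1h3f, Hist1h4d and Hist1h4h alone stand in both lists. The share of all genes called lower in both fits was not counted, so nothing is read from this overlap. In each fit the lone KO library is assumed to vary as the WT pair does, and the WT pair is shared, so the fits are not independent. No member was called higher in either. The members' median log2 fold change was −1.90 with KO replicate 1 alone and −0.80 with KO replicate 2 alone.

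H4 genes were the most abundant members per length. Hist1h4d (chr13:23581598-23582735), Hist1h4h (chr13:23531050-23531519) and Hist1h4c (chr13:23697635-23698454) held the first 3 places, with WT levels of 206 ± 3.38, 184 ± 10.7 and 144 ± 9.06 FPKM (SD, n = 2). All H4 genes code for the same or nearly the same core protein. Hist1h4d was at 52.1 and 52.4 CPM in WT and at 13.5 and 25.8 CPM in the KO libraries, an edgeR log2 fold change of −1.43 ± 0.34 (SE; unadjusted p = 0.0053, adjusted p = 0.999). Hist1h4h read 61.9 and 68.7 CPM in WT and 16.7 and 31.3 CPM in KO, a log2 fold change of −1.46 ± 0.33, and 38.5% of its sequence is shared with other genes, against none of that of Hist1h4d. Hist1h4c was at 37.9 and 35.7 CPM in WT, at 13.3 CPM in KO replicate 1 and, closer to WT, at 27.3 CPM in KO replicate 2. In all 3 genes the KO libraries lay below the WT libraries, with KO replicate 1 the lower.

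The other H4 genes were lower by level and less even. Hist1h4f read 6.72 and 4.51 CPM in WT and 0.316 and 2.12 CPM in KO, and Hist1h4b 6.48 and 3.29 CPM in WT and 0.631 and 1.42 CPM in KO. Hist1h4a was at 1.44 and 1.71 CPM in WT and at 0.421 and 0.142 CPM in KO, the last of these being 1 fragment. Hist4h4, away from the large clusters, had a log2 fold change of −0.74 ± 0.29. Hist2h4 was the 1 tested H4 gene whose groups overlapped (log2 fold change −0.26 ± 0.57).

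H3 had the lowest median of the classes, and its genes were uneven. H3 forms the tetramer with H4 at the centre of the nucleosome. Hist1h3f (chr13:23544052-23545312) was at 11.8 and 9.51 CPM in WT and at 0.841 and 1.70 CPM in KO, a log2 fold change of −3.08 ± 0.54 (edgeR unadjusted p = 0.0011, adjusted p = 0.999), and 34.3% of its sequence is shared with other genes. Hist1h3b read 4.08 and 3.29 CPM in WT and 0.526 and 0.849 CPM in KO. Hist1h3e separated the 2 KO libraries: it was at 12.5 and 10.9 CPM in WT, at 0.316 CPM in KO replicate 1 and at 5.80 CPM in KO replicate 2. Hist1h3d had 1.20 and 1.00 CPM in WT, no fragment in KO replicate 1 and 0.425 CPM in KO replicate 2.

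The remaining H3 members did not separate the groups. Hist1h3c read 1.20 and 0.976 CPM in WT, 0.105 CPM in KO replicate 1 and 2.26 CPM in KO replicate 2. In Hist2, Hist2h3b was at 3.36 and 2.32 CPM in WT and at 0.736 and 2.97 CPM in KO, and Hist2h3c2 at 1.44 and 0.854 CPM in WT and at 0.736 and 1.27 CPM in KO. Its near copy Hist2h3c1 had no fragment in WT replicate 1 and KO replicate 1, and 1.49 and 2.67 CPM in WT replicate 2 and KO replicate 2. Fragments of such copies can be assigned to either, so the pair is uncertain. In KO replicate 2, Hist2h3b and Hist2h3c2 were thus within the range of the WT libraries, while Hist1h3b, Hist1h3d, Hist1h3e and Hist1h3f were below it.

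**Figure D3:**
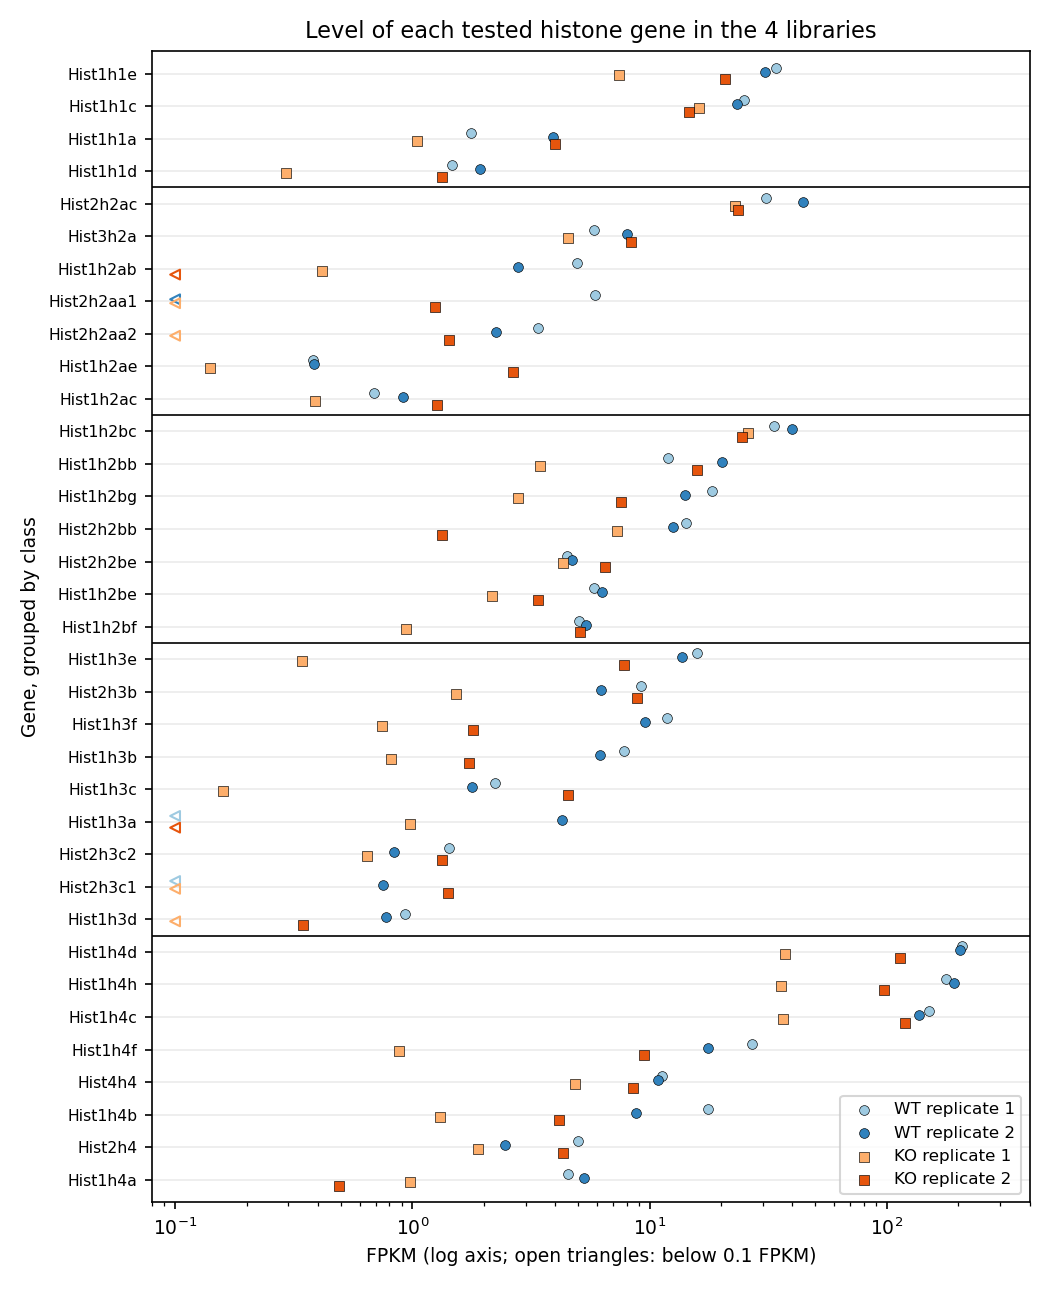
FPKM of the tested histone members in the 4 libraries on a log axis, ordered within each class by mean level. H4 members reach 208 FPKM (Hist1h4d, WT replicate 1), and for Hist1h4d, Hist1h4h and Hist1h3f both KO points lie left of both WT points.

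Among the linker histones, Hist1h1c and Hist1h1e carried most fragments. Hist1h1c, the gene of H1.2, was at 41.5 and 39.1 CPM in WT and at 29.3 and 23.2 CPM in KO, a log2 fold change of −0.63 ± 0.23. Hist1h1e, the gene of H1.4, was further from WT in KO replicate 1, with 23.3 and 20.98 CPM in WT and 6.00 and 13.3 CPM in KO (log2 fold change −1.21 ± 0.42). Hist1h1d, the gene of H1.3, read 6.48 and 8.54 CPM in WT and 1.37 and 5.66 CPM in KO. Hist1h1a, the gene of H1.1, did not separate the groups, at 1.20 and 2.68 CPM in WT and 0.841 and 2.55 CPM in KO. Of the 4 tested H1 genes, KO replicate 2 was the lower KO library in Hist1h1c alone.

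H2A fragments came more from Hist2 than from Hist1 in all 4 libraries, and in KO replicate 2 the most came from Hist3h2a. Hist2h2ac (chr3:96220361-96220880) ranked 5 among all members by FPKM and read 12.5 and 18.3 CPM in WT and 11.9 and 8.77 CPM in KO, a log2 fold change of −0.60 ± 0.35. Hist3h2a was at 12.7 and 17.6 CPM in WT and 10.7 and 17.4 CPM in KO, and the groups overlapped. Hist1h2ab had the most negative estimate of all members (log2 fold change −3.51 ± 1.597), from 1.92 and 1.10 CPM in WT, 0.210 CPM in KO replicate 1 and no fragment in KO replicate 2, fewer than 10 fragments in each library. Hist1h2ae had the most positive (1.66 ± 1.77) from KO replicate 2 alone, at 0.240 and 0.244 CPM in WT and 0.105 and 1.56 CPM in KO. Hist1h2ac overlapped between the groups (1.92 and 2.56 CPM in WT, 1.16 and 3.40 CPM in KO). Hist2h2aa1 and Hist2h2aa2, copies of one another, were at 2.78 and 1.44 CPM in WT replicate 1, at 0 and 0.976 CPM in WT replicate 2, both at 0 in KO replicate 1, and at 0.550 and 0.566 CPM in KO replicate 2.

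H2B, which pairs with H2A, was led by Hist1h2bc (chr13:23684199-23692908), at 22.3 and 26.7 CPM in WT and 20.5 and 15.3 CPM in KO (log2 fold change −0.47 ± 0.27). Hist1h2be read 15.3 and 16.7 CPM in WT and 6.01 and 8.49 CPM in KO. Hist1h2bg was at 9.60 and 7.44 CPM in WT and at 1.79 and 3.68 CPM in KO, a log2 fold change of −1.65 ± 0.53. Hist1h2bb, with the annotated 3′ end right after its stem-loop, overlapped between the groups at 4.08 and 7.07 CPM in WT and 1.58 and 4.95 CPM in KO. Hist2h2bb was at 3.36 and 4.63 CPM in WT, 3.16 CPM in KO replicate 1 and 0.283 CPM in KO replicate 2, so here KO replicate 2 was the lower. GENCODE M21 lists its identifier as a long intergenic non-coding RNA. Hist2h2be (chr3:96221119-96223738) was the 1 tested H2B gene with an estimate above 0, at 13.2 and 13.9 CPM in WT and 13.6 and 18.3 CPM in KO (log2 fold change 0.22 ± 0.29).

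Members were next grouped by the end of a GENCODE transcript, which the selection did not use. Where several held the stem-loop, the transcript that runs furthest past it was taken. For 22 members that transcript ended within 100 bases of the stem-loop, and for 22 it went on further. For 24, no stem-loop was found in any transcript. Some of these 24 have short annotated transcripts, such as Hist1h4k (312 bases), and others long ones, such as Hist2h2be (2620 bases). A stem-loop beyond the annotated end would be missed, so the 24 are a group of the annotation only. The genes that end near the stem-loop summed to 107.9 and 114.1 CPM in WT and 33.2 and 55.2 CPM in KO, or 29.9% and 49.7% of the WT mean. Those that extend past it summed to 274.9 and 266.7 CPM in WT and 106.6 and 175.3 CPM in KO (39.4% and 64.7%). Those with no stem-loop found, led by Hist1h2bc and Hist2h2be, summed to 48.0 and 56.2 CPM in WT and 39.9 and 39.8 CPM in KO (76.5% and 76.3%). The order was the same in both KO libraries as CPM. As FPKM it was 22.2%, 24.2% and 51.8% in KO replicate 1, and 54.2%, 66.0% and 55.9% in KO replicate 2, where the genes with no stem-loop found no longer lay closest to WT. These groups also differ in class and cluster, which cannot be told apart from the 3′ end here. A gene that extends past the stem-loop in the annotation may still give short messages, and the deposited counts do not separate the forms. The counts also rest on the authors' annotation, whose transcripts can end elsewhere than those of GENCODE. Hist1h4d, grouped as extending past the stem-loop, has 1138 bases in GENCODE, and Hist1h4h, grouped as ending near it, has 470. Yet 1 CPM in WT replicate 1 was worth 3.99 FPKM for Hist1h4d and 2.85 for Hist1h4h. The transcript counted for Hist1h4d was thus the shorter, and the groups hold for GENCODE ends only.

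Length also enters through the deposited FPKM. A gene has more FPKM for each CPM the shorter its transcript in the authors' annotation. For Hist1h4d, 1 CPM was worth 3.99 and 3.88 FPKM in the WT libraries, against 2.76 FPKM for KO replicate 1 and 4.43 for KO replicate 2. In the same order, Hist2h2ac had 2.48, 2.43, 1.92 and 2.68 FPKM for each CPM, and the longer Hist4h4 had 0.306, 0.305, 0.287 and 0.319. For Fbxo45, which is no histone gene, the values were 0.206, 0.206, 0.196 and 0.215. On the FPKM scale, short genes such as Hist1h4d and Hist2h2ac in KO replicate 1 therefore sit lower, relative to WT, than on the CPM scale. Hist1h4d, for example, read 208 and 203 FPKM with the WT label, then 37.2 for KO replicate 1 and 114 for KO replicate 2. Summed as FPKM in place of CPM, the log2 ratio of the group means was −0.91 in place of −0.50 for H2A, −0.86 in place of −0.59 for H2B and −0.80 in place of −0.32 for Hist2, so the smaller distance of these groups from WT was less marked per length. The libraries differ in FPKM for each CPM, so the class sums are given on both scales. Why they differ, and which scale compares short genes better between libraries, was not tested. KO replicate 1 is the lower KO library for each class on both scales.

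The deposited loci do not set a part of the members apart from their neighbours, though each gene has counts of its own. The table gives 24 of the 68 members, 19 of them tested, a locus that also holds other genes. In Hist1, 13 members shared such a locus with 4 other genes (Btn1a1, Abt1, Zfp322a and Btn2a2). These 13 summed to 114.5 and 115.5 CPM in WT and 22.4 and 53.8 CPM in KO (19.5% and 46.8% of the WT mean), while the 4 neighbours summed to 28.3 and 24.999 CPM in WT and 23.1 and 39.2 CPM in KO. The 42 Hist1 members with a locus of their own summed to 218.8 and 221.5 CPM in WT and 95.8 and 130.1 CPM in KO (43.5% and 59.1%). In Hist2, the 16 other genes of the shared locus summed to 259.6 and 256.7 CPM in WT and 299.6 and 237.0 CPM in KO, on either side of WT. Over the 26 members of all clusters with under 25% of their sequence shared with another gene, the sum was 265.6 and 263.6 CPM in WT and 122.1 and 173.2 CPM in KO (46.2% and 65.5%). Without the 8 most abundant members the rest still summed to 141.9 and 144.1 CPM in WT and 49.9 and 89.3 CPM in KO.

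The members' promoters were read from RefSeq (build GRCm38.p6), from 250 bases before to 50 after the start. They were found for 61 of the 68, and Hist1h2be had a pair of them, which made 62 promoters. The 4 motifs of histone promoters named here were searched by letters on both strands, namely the TATA box as TATAAA, the CCAAT box as CCAAT, the octamer of H2A and H2B genes as ATTTGCAT and the H1 box as AAACACA. No motif contains another, though the windows of opposed genes can hold the same site. Of the 62, 35 held TATAAA (56.5%, against 13.6% of all 32851 promoters of this length), and 53 held CCAAT (85.5% against 37.4%). The octamer was in 14 (22.6% against 1.74%), namely 7 of 17 H2A and 7 of 17 H2B promoters, and in no H1, H3 or H4 promoter. The H1 box was in 5 of 6 H1 promoters and in 9 in all (14.5% against 7.18%). CCAAT was in all 50 promoters of the H1, H2A, H2B and H3 genes and in 3 of 12 of the H4 genes. A match is a run of letters and no measured binding. Promoters of 3 abundant members show these elements, with the motif letters of either strand in capitals.
Hist1h1e (chr13:23622509-23622808, minus strand): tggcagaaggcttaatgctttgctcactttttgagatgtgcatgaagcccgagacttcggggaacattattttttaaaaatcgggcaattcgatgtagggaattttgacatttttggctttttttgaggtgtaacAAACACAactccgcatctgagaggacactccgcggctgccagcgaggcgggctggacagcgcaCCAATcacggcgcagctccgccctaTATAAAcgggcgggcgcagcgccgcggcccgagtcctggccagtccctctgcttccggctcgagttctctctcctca
Hist1h4d (chr13:23581318-23581617, plus strand): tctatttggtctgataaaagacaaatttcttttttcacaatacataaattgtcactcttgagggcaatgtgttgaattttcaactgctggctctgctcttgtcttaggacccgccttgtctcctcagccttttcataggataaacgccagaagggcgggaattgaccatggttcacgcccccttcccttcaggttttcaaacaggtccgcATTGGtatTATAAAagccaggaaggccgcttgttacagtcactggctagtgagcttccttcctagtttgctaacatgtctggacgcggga
Hist2h2ac (chr3:96220831-96221130, minus strand): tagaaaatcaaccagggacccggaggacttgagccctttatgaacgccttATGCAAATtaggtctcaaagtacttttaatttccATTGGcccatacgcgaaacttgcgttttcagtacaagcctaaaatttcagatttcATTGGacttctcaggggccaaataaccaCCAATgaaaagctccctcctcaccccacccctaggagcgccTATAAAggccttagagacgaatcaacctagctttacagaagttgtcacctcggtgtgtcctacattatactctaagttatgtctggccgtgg

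The Hist2h2ac promoter lies between 2 genes read in opposite directions, an arrangement common to H2A and H2B genes. There were 13 such head-to-head pairs of members within 1000 bases, 12 of them an H2A with an H2B gene, and in 3 pairs both genes were tested. Hist2h2ac and Hist2h2be, 238 bases apart, differed: Hist2h2ac was lower in both KO libraries and Hist2h2be, with 13.6 and 18.3 CPM in KO beside 13.2 and 13.9 CPM in WT, was not. The step from 12.5 CPM in WT replicate 1 to 11.9 CPM in KO replicate 1 for Hist2h2ac is small beside the distance between the WT libraries. Hist1h2ac and Hist1h2bc, 250 bases apart, differed as well, since Hist1h2bc was lower in both KO libraries and Hist1h2ac in KO replicate 1 only. In the pair 175 bases apart, Hist1h2bg was at 9.60 and 7.44 CPM in WT and 1.79 and 3.68 CPM in KO, while Hist1h2ae stayed at or under 1.56 CPM throughout. So none of the 3 tested pairs had both partners below WT in both KO libraries. Hist1h2ae, with 1 and 2 fragments in WT, was too low to show a fall. Among the pairs with an untested gene, 1 or both partners being low, Hist1h2bf with Hist1h2ad and Hist1h2bh with Hist1h3f had both partners below WT. The other such pairs did not. The difference between partners was not itself tested.

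Genes that make and process histone messages were followed as a list of 27, chosen like the members with earlier results of these data known; 25 were tested. In edgeR none of the 25 was called, 15 had a log2 fold change above 0 and 10 below, and the median was 0.09, beside 0.02 for all genes. Slbp, the stem-loop binding protein, was at 24.7 and 20.98 CPM in WT and 16.1 and 28.7 CPM in KO, and Npat, which drives histone transcription in S phase, at 40.8 and 44.4 CPM in WT and 33.0 and 65.9 CPM in KO. Both overlapped between the groups, with KO replicate 1 the lower. The smallest unadjusted p-values were those of Upf1, a helicase of histone message decay (90.7 and 86.8 CPM in WT, 69.0 and 67.6 CPM in KO), Cpsf2, a subunit of the cleavage complex (38.4 and 41.3 CPM in WT, 52.2 and 53.2 CPM in KO), and Lsm10, a protein of the U7 particle (7.199 and 10.2 CPM in WT, 14.4 and 12.03 CPM in KO). Of the 25, 8 had both KO libraries above both WT libraries (16.4% of all genes) and 3 had both below (16.8% of all genes).

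Replacement histones are made throughout the cell cycle from polyadenylated messages. Of 11 listed, 9 were tested and none was called by edgeR; 2 had a log2 fold change above 0 and 7 below, with a median of −0.16, beside −1.13 for the replication-dependent genes. H2afj, an H2A variant, read 80.4 and 77.8 CPM in WT and 57.5 and 64.7 CPM in KO. It was the 1 gene of the list with both KO libraries below both WT libraries (16.8% of all genes tested). H1f0, the linker histone of non-dividing cells, read 139.2 and 136.1 CPM in WT and 219.2 and 124.7 CPM in KO, with KO replicate 1 above WT and KO replicate 2 below. H2afy, the macroH2A gene, followed the same order, at 66.2 and 66.1 CPM in WT and 85.4 and 63.3 CPM in KO. H3f3b, one of the H3.3 genes, was at 376 and 424 CPM in WT and at 301 and 462 CPM in KO.

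S phase genes were even between the directions, 15 above 0 and 15 below of 30 tested, with a median log2 fold change of 0.01 and none called by edgeR. Both KO libraries were below both WT libraries for 3 of them (16.8% of all genes tested) and above for 3 (16.4% of all genes tested). Mcm3, a subunit of the replicative helicase, was at 4.56 and 3.29 CPM in WT and 0.947 and 0.283 CPM in KO (log2 fold change −2.60 ± 0.89, edgeR adjusted p = 0.999). Cdt1, which loads that helicase, read 8.16 and 3.42 CPM in WT and 1.47 and 3.40 CPM in KO. Pcna, the sliding clamp of replication, was at 58.6 and 57.1 CPM in WT and 55.3 and 65.0 CPM in KO, and Mki67, a gene of cycling cells, at 8.40 and 14.3 CPM in WT and 7.36 and 9.20 CPM in KO. Both overlapped between the groups. The histone sums stood at 41.4% and 62.3% of WT in the same libraries.

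**Figure D4:**
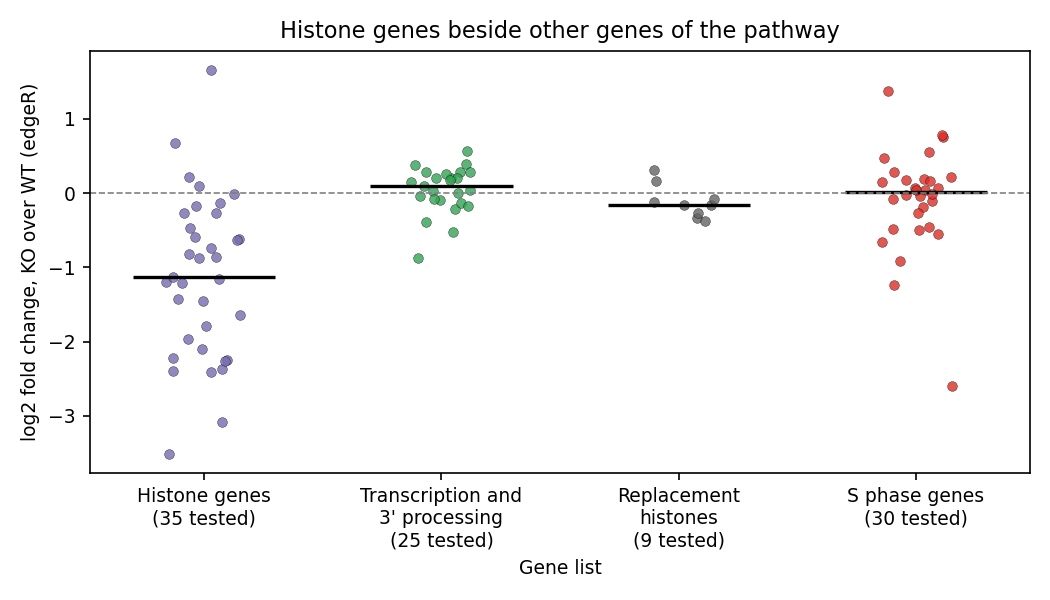
edgeR log2 fold change (KO over WT) of each tested gene of the replication-dependent histones and of the 3 lists of related genes; each point is a gene and the bar is the median. The histone median lies at −1.13, and those of the other lists between −0.16 and 0.09.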

How the data were processed

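RNA sequencing of 2 WT and 2 KO libraries was used. Per the submitters' processing notes the tools were cutadapt 1.9.3, HISAT2 2.0.4 and Cuffdiff 2.2.1 with Cufflinks, on mm10; no source used here names the annotation release. The authors deposited FPKM and estimated counts per gene. Each library's estimated counts were divided by their common step and rounded to fragments. Genes with a mean of at least 0.5 CPM over the 4 libraries were tested with edgeR 4.0.16 (TMM, quasi-likelihood F-test, Benjamini-Hochberg over all genes, 0.05; R 4.3.3), and the SE was taken from the F statistic. limma 3.58.1 on log2(FPKM + 1), for genes at 1 FPKM in at least 2 libraries, DESeq2 1.42.0 and the other settings of the closing section were alternatives. The edgeR step was tested on simulated counts. Depth ranged from 4167131 to 9507471 fragments, and sums of members carry exact (Clopper-Pearson) 95% intervals and no test. Members were matched to GENCODE M21, 61 by gene ID and 7 by symbol. Members named with their values are the 4 of each class with the highest mean FPKM, every tested member of Hist2, Hist3 and Hist4, and the 5 lowest and 5 highest log2 fold changes; Hist1h4b and Hist1h2be were added after their values were seen. From each other list the 3 genes with the smallest p are named, and Fbxo45, Fbxo46 and Mki67; Slbp, Npat, Pcna and H3f3b were added for their roles. The members and lists were chosen with earlier results of these data known.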

Additional observations from a re-analysis of the deposited data

How the results depend on the processing

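For sums of members, 85 of 100 values of the sums and of the count of called genes moved by less than the spread between replicates or 1.5 times, and 49 of 49 sums under settings other than leaving out a library had a log2 ratio below 0. Summing FPKM in place of CPM moved H2A to −0.91, H2B to −0.86 and Hist2 to −0.80. Leaving out each library in turn gave log2 ratios of −1.27 to −0.68 for all members, −0.92 to −0.69 for H1, −0.72 to −0.31 for H2A, −0.68 to −0.49 for H2B, −3.06 to −0.96 for H3, −1.69 to −0.79 for H4, −1.50 to −0.87 for Hist1, −0.49 to −0.17 for Hist2, −0.51 to 0.19 for Hist3 and −1.09 to −0.44 for Hist4. The lowest value was the one without KO replicate 2 for all of these except H2B. The count of called genes, 0 in edgeR, was 5 with no filter, 8 with DESeq2 and 0 to 1069 when 1 library was left out, where a library left alone in its group takes its spread from the other pair. The labels do not say whether replicate numbers pair the libraries. The correlation of the WT and KO replicate differences was 0.0236, which by itself cannot exclude pairing. A replicate block called 18 genes, Hist1h4h among them. For named members, 23 of 333 values changed sign. Hist1h3c, at 0.09, went to −0.55 with the replicate block and to −0.25 and −0.94 in limma on log2(FPKM + 1) and log2(FPKM + 0.1), and Hist1h2ac, at −0.02, to 0.0068 with the counts as deposited and 0.0048 with DESeq2. All other changes of sign came from leaving out 1 library, which gave ranges of −3.17 to 1.06 for Hist1h3c, −0.99 to 0.55 for Hist1h2ac, −1.28 to 0.50 for Hist1h1a, −1.11 to 2.58 for Hist1h2ae, −6.17 to 4.23 for Hist2h2aa1, −0.021 to 0.41 for Hist2h2be, −1.91 to 0.091 for Hist2h3b, −5.69 to 6.22 for Hist2h3c1, −0.58 to 0.20 for Hist2h3c2, −0.81 to 0.28 for Hist2h4, and −0.54 to 0.17 for Hist3h2a; the lowest of each was the one without KO replicate 2. The cause was not tested. A member with fewer than 3 fragments in a library is near the limit of what these depths can show.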
